A study of Mus musculus with 8 samples.

Results

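Genes of insulin and insulin-like growth factor (IGF) signalling were followed in hippocampal RNA of 8 female mice, each measured on its own 1-colour Agilent expression array. The set was fixed by name and held 10 genes: the ligands Igf1 and Igf2, the receptors Igf1r, Insr and Igf2r, the receptor substrates Irs1 and Irs2, and the binding proteins Igfbp2, Igfbp4 and Igfbp5. They are 10 of the 21368 genes that could be named on the array from RefSeq accessions, and 10 of the 16618 bright enough to be tested. All 8 mice were nontransgenic littermates of APPswe695/PSEN1dE9 animals, kept on a C57BL/6J background. The 4 Control mice were untreated and 19 weeks old. The 4 Hydroxyurea mice drank hydroxyurea, an inhibitor of ribonucleotide reductase, at 45 mg/kg/day for 10 weeks, starting at 9 to 14 weeks of age. Hydroxyurea 1 and Hydroxyurea 2 were 24 weeks old at the end of treatment, and Hydroxyurea 3 and Hydroxyurea 4 were 19 weeks old. Neither group carried the transgenes, and mice were housed in shared cages that the labels do not tie to single animals. The series set treated against untreated hippocampus under a title on protection of hippocampal neurons and on memory.

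IGF-1 and IGF-2 are secreted growth factors that act mainly through the IGF-1 receptor, a tyrosine kinase closely related to the insulin receptor. Active receptors phosphorylate the substrates IRS-1 and IRS-2, which recruit phosphoinositide 3-kinase and lead to the kinases AKT and mTOR and to the FoxO transcription factors. Binding proteins hold the IGFs in the extracellular fluid, and the IGF-2 receptor takes IGF-2 up for breakdown in lysosomes. In the brain, the choroid plexus and meninges are major sources of IGF-2 and of IGF-binding protein 2.

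The members were chosen with the contrast of treated against untreated mice already known, and Igf1r in particular because it had been seen to be lower in treated mice. The differences of the members between the groups are therefore descriptions, given with their standard error and 95% interval and with no test. Levels are log2 signal minus the 75th percentile of the array, called the scaled log2 signal, and levels of different probes cannot be set against each other. The 10 genes were read by 17 probes, and all 17 were well above background on all 8 arrays. Of these genes, 6 had 1 probe and 4 had several, where the brightest probe stood for the gene.

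The arrays lay on 1 slide, with the Control arrays in one row and the Hydroxyurea arrays in the other, which leaves slide row confounded with treatment. Hydroxyurea 2 was dimmest, with a 75th percentile of 1052 signal units, and Control arrays had 1677 to 2417. The median coefficient of variation over replicate spots was 12.1% for Control 1 and 3.15% to 3.45% for the other arrays. Of 12 markers of hippocampal neurons, 11 were well above background on all 8 arrays, and Iyd was not bright enough to be tested. Of 18 choroid plexus markers, 16 were well above background on all 8 arrays. In whole tissue, fewer cells of a type and less RNA per cell cannot be told apart.

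The upstream sequences of Igf1r and Igfbp2 are shown because Igf1r was the member whose groups did not overlap and Igfbp2 had the widest range over the mice. They are the 250 bases before the annotated start in RefSeq (GRCm38.p6), 5′ to 3′ on the strand of the gene, and capitals mark GC boxes (GGGCGG or its reverse complement CCGCCC).
Igf1r, chr7:67952007-67952256, plus strand: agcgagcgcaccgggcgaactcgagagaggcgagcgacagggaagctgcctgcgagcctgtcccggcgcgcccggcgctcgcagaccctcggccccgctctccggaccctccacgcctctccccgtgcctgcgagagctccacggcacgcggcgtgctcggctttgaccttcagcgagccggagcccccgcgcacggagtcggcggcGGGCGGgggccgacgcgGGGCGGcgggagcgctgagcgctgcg
Igfbp2, chr1:72824230-72824479, plus strand: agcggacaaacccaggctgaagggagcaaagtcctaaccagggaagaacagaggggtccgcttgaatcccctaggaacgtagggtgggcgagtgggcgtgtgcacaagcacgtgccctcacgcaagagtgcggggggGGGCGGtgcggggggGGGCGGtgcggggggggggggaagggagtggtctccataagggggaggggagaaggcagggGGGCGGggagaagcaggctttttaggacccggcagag
The Igf1r window was 77.6% G and C, against a median of 52.4% over 32851 windows of that length, and held 42 CpG pairs and 2 GC boxes. The Igfbp2 window shown was 67.2% G and C and held 3 GC boxes and 14 CpG pairs. A second annotated start of Igfbp2, whose window is chr1:72825137-72825386, had 56.4% G and C, 0 GC boxes and 11 CpG pairs. A GC box was present in 32.7% of all windows. The FoxO letters GTAAACA (reverse complement TGTTTAC), found in 3.17% of all windows, were in 0 of the 13 windows of the 9 members that had one.

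Igf1r, which encodes the IGF-1 receptor, was lower in treated mice. Its scaled log2 signal was 2.29, 2.29, 2.41 and 2.26 across Control 1 to 4, and 2.0, 2.01, 1.95 and 1.99 across Hydroxyurea 1 to 4. The groups did not overlap, and the treated values lay closer together than the Control values. The log2 difference was -0.32 ± 0.06 (SE, n = 4 per group; 95% interval -0.45 to -0.19), a level 0.799 times that of Control mice. Over all genes tested, limma with Benjamini-Hochberg adjustment called 0%, and 9.88% had an unadjusted p under 0.05. Non-overlapping groups were seen for 7.49% of genes, with treated mice lower for 5.11% and higher for 2.38%. Since Igf1r was chosen on this contrast, nothing is read from these shares. The difference was -0.41 ± 0.09 (SE) under median centring of the arrays and -0.22 ± 0.09 under another background correction (normexp). Median centring also moved the median difference of all genes tested, to -0.09 from -0.004. It was -0.34 when Control 1, with its noisy spots, and the dimmer Hydroxyurea 2 were both left out. Igf1r had 1 probe, so no second probe bears on this value.

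**Figure D1:**
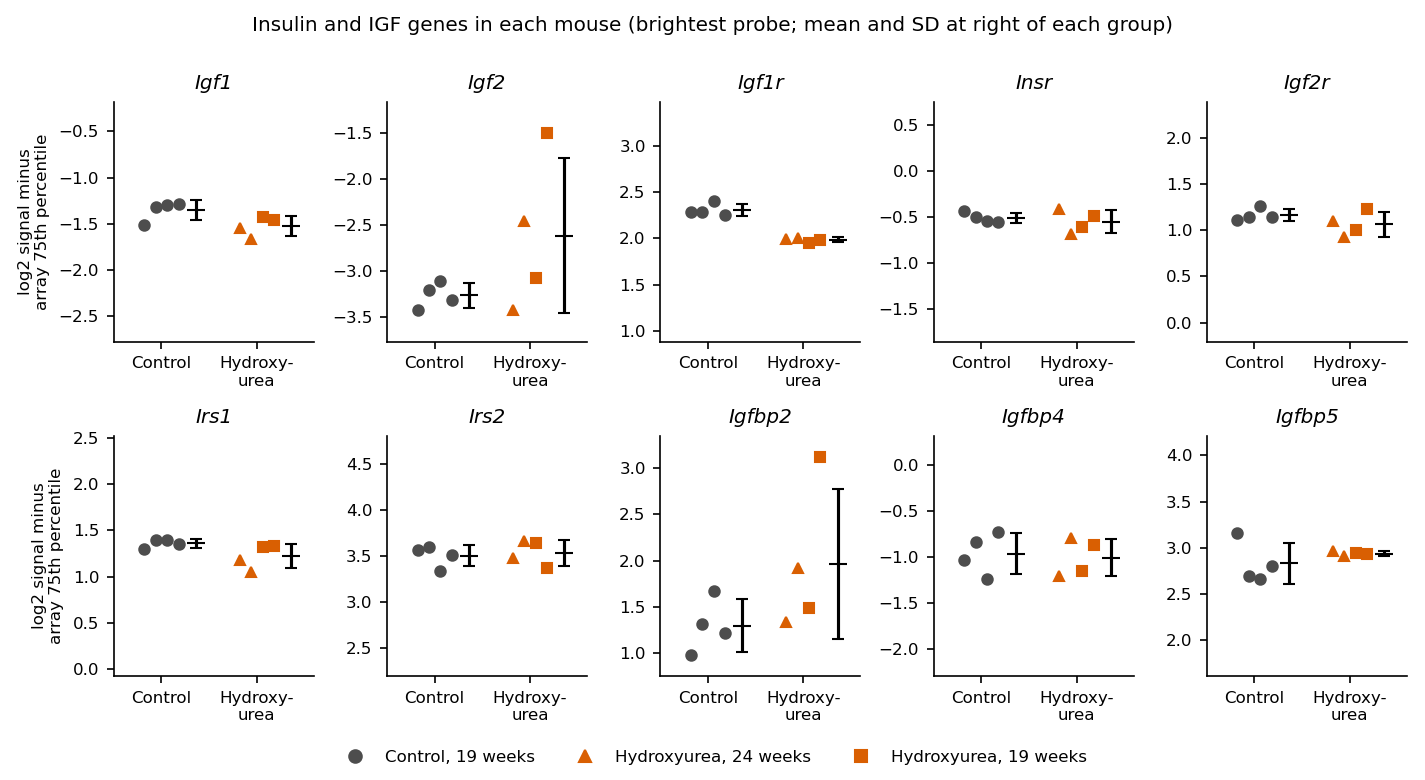
Scaled log2 signal of the brightest probe of each of the 10 genes in each of the 8 mice, with the mean and SD (n = 4) beside each group; every panel spans the same number of log2 units. The 4 treated Igf1r values lie between 1.95 and 2.01, below all Control values, while Igf2 and Igfbp2 are spread widely in treated mice and highest in Hydroxyurea 4.

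The insulin receptor gene Insr showed no such separation. Its brightest probe read -0.43, -0.50, -0.55 and -0.56 across Control 1 to 4, and -0.42, -0.69, -0.61 and -0.49 across Hydroxyurea 1 to 4. Treated mice held both the highest and the lowest values, and the difference was -0.04 ± 0.07 (SE, n = 4 per group; 95% interval -0.21 to 0.13). The other Insr probes were dimmer, and the differences of the 3 probes ranged from -0.13 to -0.02. With normexp the brightest probe gave 0.08, and without Hydroxyurea 2 it gave 0.01, so the direction for Insr is not settled.

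Igf2r, the receptor that clears IGF-2, was read by a probe with 10 spots on each array. The SD over these spots within an array had a median of 0.04 and reached 0.20. The scaled log2 signal was 1.11, 1.14, 1.26 and 1.14 across Control 1 to 4, and 1.09, 0.92, 1.0 and 1.23 across Hydroxyurea 1 to 4. Of the treated mice, 3 lay below all Control mice and Hydroxyurea 4 lay near the highest of them. The difference was -0.10 ± 0.08 (SE, n = 4 per group; 95% interval -0.29 to 0.08). It was -0.16 without Hydroxyurea 4 and -0.05 without Hydroxyurea 2.

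Igf1, which encodes the ligand of that first receptor, had slightly lower values in treated mice on its brightest probe. The values were -1.51, -1.32, -1.29 and -1.29 across Control 1 to 4, and -1.55, -1.67, -1.42 and -1.46 across Hydroxyurea 1 to 4. Control 1 lay apart from its group and inside the treated range, so the groups overlapped. The difference was -0.17 ± 0.08 (SE, n = 4 per group; 95% interval -0.36 to 0.01). The 4 Igf1 probes did not all run the same way: 3 were lower and 1, the dimmest, was higher, with differences from -0.17 to 0.12. The mean over these probes gave -0.05.

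Igf2 varied more between treated mice than between Control mice. It read -3.42, -3.21, -3.11 and -3.31 across Control 1 to 4, and -3.42, -2.46, -3.08 and -1.51 across Hydroxyurea 1 to 4. Hydroxyurea 1 matched the lowest Control mouse, and the other treated mice lay above all Control mice, Hydroxyurea 4 by the most. The SD was 0.84 in treated and 0.14 in Control mice. The difference was 0.65 ± 0.37 (SE, n = 4 per group; 95% interval -0.21 to 1.5), and it was 0.28 without Hydroxyurea 4.

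**Figure D2:**
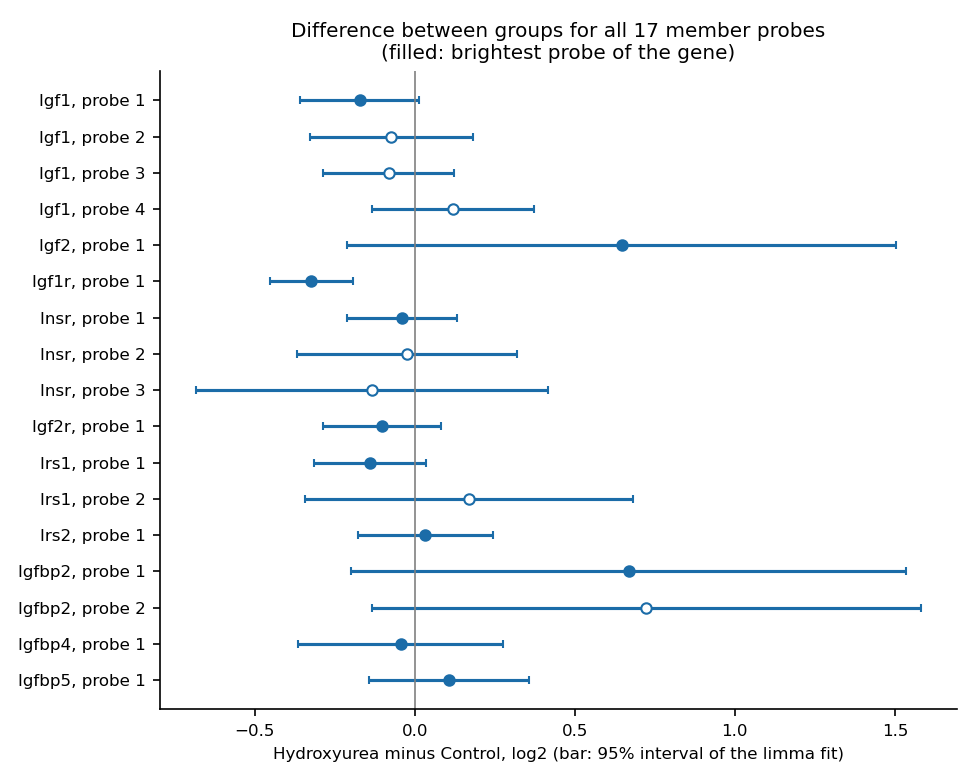
Log2 difference between the means of Hydroxyurea and Control mice (points) with its 95% interval (bars) for all 17 probes of the 10 genes, numbered from the brightest to the dimmest probe of a gene. The Igf1r interval runs from -0.45 to -0.19, and those of Igf2 and Igfbp2 are the widest.

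Irs1, a docking protein of both receptors, had its lowest values in the older treated mice. Its brightest probe read 1.3, 1.39, 1.39 and 1.35 across Control 1 to 4, and 1.18, 1.05, 1.31 and 1.33 across Hydroxyurea 1 to 4. The 24-week mice lay below all Control mice and the 19-week mice inside the Control range. The difference was -0.14 ± 0.08 (SE, n = 4 per group; 95% interval -0.32 to 0.03), -0.08 without Hydroxyurea 2 and -0.04 among 19-week mice only. The second, dim probe had 0.17 ± 0.22, the opposite sign. Irs2, the other substrate, read 3.57, 3.60, 3.34 and 3.51 across Control 1 to 4, and 3.47, 3.66, 3.64 and 3.37 across Hydroxyurea 1 to 4. Its groups overlapped almost fully, with a difference of 0.03 ± 0.09 (95% interval -0.18 to 0.24).

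Igfbp2, whose protein is abundant in cerebrospinal fluid, followed the Igf2 pattern. Its brightest probe read 0.98, 1.31, 1.68 and 1.22 across Control 1 to 4, and 1.33, 1.93, 1.49 and 3.12 across Hydroxyurea 1 to 4. Hydroxyurea 4 and Hydroxyurea 2 lay above all Control mice and the other treated mice lay among them. The difference was 0.67 ± 0.38 (SE, n = 4 per group; 95% interval -0.20 to 1.54), and it was 0.28 without Hydroxyurea 4. The second Igfbp2 probe gave 0.72 ± 0.37.

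Igfbp4 read -1.03, -0.84, -1.24 and -0.73 across Control 1 to 4, and -1.20, -0.80, -1.15 and -0.87 across Hydroxyurea 1 to 4. Every treated mouse lay inside the Control range, and the difference was -0.04 ± 0.14 (SE, n = 4 per group; 95% interval -0.36 to 0.28). Igfbp5, a binding protein that attaches to extracellular matrix, read 3.16, 2.70, 2.67 and 2.80 across Control 1 to 4, and 2.97, 2.91, 2.94 and 2.93 across Hydroxyurea 1 to 4. The treated mice lay close together inside the wider Control range, where Control 1 was highest. The difference was 0.11 ± 0.11 (95% interval -0.14 to 0.36). Without Control 1, the array with noisy spots, the Igfbp5 difference was 0.22 ± 0.05 and every treated mouse lay above the 3 remaining Control mice. It was 0.06 without Control 2 and 0.05 without Control 3.

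Across the 10 genes, 6 were lower and 4 higher in treated mice on the brightest probe, with a median difference of -0.04 against -0.004 over all genes tested. Over all genes tested, 51.3% were lower in treated mice and 7.49% had groups that did not overlap. Igf1r was the 1 member whose groups did not overlap, and it had been chosen on this contrast. The signs of Insr, Irs1, Irs2 and Igfbp4 turned under at least 1 alternative setting, and those of the other 6 did not.

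Igf2 and Igfbp2 were set against markers of the choroid plexus and of the meninges, since both tissues make these proteins. The choroid plexus score, the mean over 18 markers of the log2 value minus its mean over the mice, was -2.09, -0.98, 0.81 and -0.33 across Control 1 to 4. Treated mice scored -1.17, 0.88, 0.15 and 2.73 across Hydroxyurea 1 to 4. The groups overlapped, and Hydroxyurea 4 was highest. All 18 markers had a higher mean in treated mice, and their summed signal was 9.38 to 112 times the 75th percentile of the array in Control and 19.7 to 243 times in treated mice. Ttr, the transthyretin secreted by this epithelium, read 2.56, 4.66, 6.51 and 5.60 across Control 1 to 4 and 3.76, 7.23, 6.19 and 7.34 across Hydroxyurea 1 to 4. Markers of ependyma, the cells that line the ventricles, were higher in treated mice for 9 of 9 genes tested, with a median difference of 0.52. Their summed signal was 1.37 to 6.60 times the 75th percentile in Control and 3.07 to 11.7 times in treated mice, highest in Hydroxyurea 4. Thalamus markers were higher for 5 of 5 genes tested, with a median of 0.25 and the highest score in Hydroxyurea 3. The part of these tissues in the differences of Igf2 and Igfbp2 was not tested.

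Over the 8 mice, Igf2 and the choroid plexus score had a Pearson r of 0.89 (exact permutation p = 0.00062, adjusted p = 0.0062 over 20 relations) and a Spearman rho of 0.95 (exact permutation p = 0.0011, adjusted p = 0.023). For Igfbp2, r was 0.93 (exact permutation p = 0.00035, adjusted p = 0.0062) and rho was 0.90 (exact permutation p = 0.0046, adjusted p = 0.046). Leaving out Control 1 and Hydroxyurea 4, the mice farthest from the median score, r was 0.75 for Igf2 and 0.84 for Igfbp2. With the group means removed, r was 0.86 and 0.91. Without Hydroxyurea 4 alone, r was 0.76 and 0.91, and neither passed (exact permutation adjusted p = 0.145 and 0.111). Over all alternatives the adjusted p ran from 0.0042 to 0.145 for Igf2 and from 0.0042 to 0.12 for Igfbp2. Groups of 4 mice are too small for a coefficient within a group.

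The meningeal score did not pass for any member. It was -0.50 to 0.47 in Control and -0.47 to 0.69 in treated mice, with 7 of 14 markers higher and 7 lower. Igf2 had r = 0.56 (exact permutation p = 0.138, adjusted p = 0.460) and rho = 0.40 (exact permutation p = 0.327, adjusted p = 0.654). Igfbp2 had r = 0.68 (exact permutation p = 0.0438, adjusted p = 0.175) and rho = 0.52 (exact permutation p = 0.197, adjusted p = 0.492). Leaving out Hydroxyurea 4 and Control 3, the mice farthest from the median of this score, r was -0.10 for Igf2 and 0.07 for Igfbp2, so both rest on those mice. With the group means removed over all 8 mice, r was 0.65 and 0.80. Of the 20 relations, 2 passed after adjustment, both with the choroid plexus score, and 5 had an unadjusted p under 0.05. Those 5 held Irs2 with the meningeal score (r = -0.78, exact permutation p = 0.0256, adjusted p = 0.171). They also held Igf2r with that score (r = 0.74, exact permutation p = 0.0367, adjusted p = 0.175). Leaving out Hydroxyurea 4 and Control 3, r was -0.30 for Irs2 and 0.37 for Igf2r. With both Control 1 and Hydroxyurea 2 left out, 0 of the 20 passed over the 6 mice left, while r with the choroid plexus score was 0.92 for Igf2 and 0.93 for Igfbp2. For Igf1r, r with that score was -0.35 (exact permutation p = 0.399, adjusted p = 0.749), rho was -0.29 (exact permutation p = 0.501, adjusted p = 0.835), and r was 0.08 without Control 1 and Hydroxyurea 4.

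**Figure D3:**
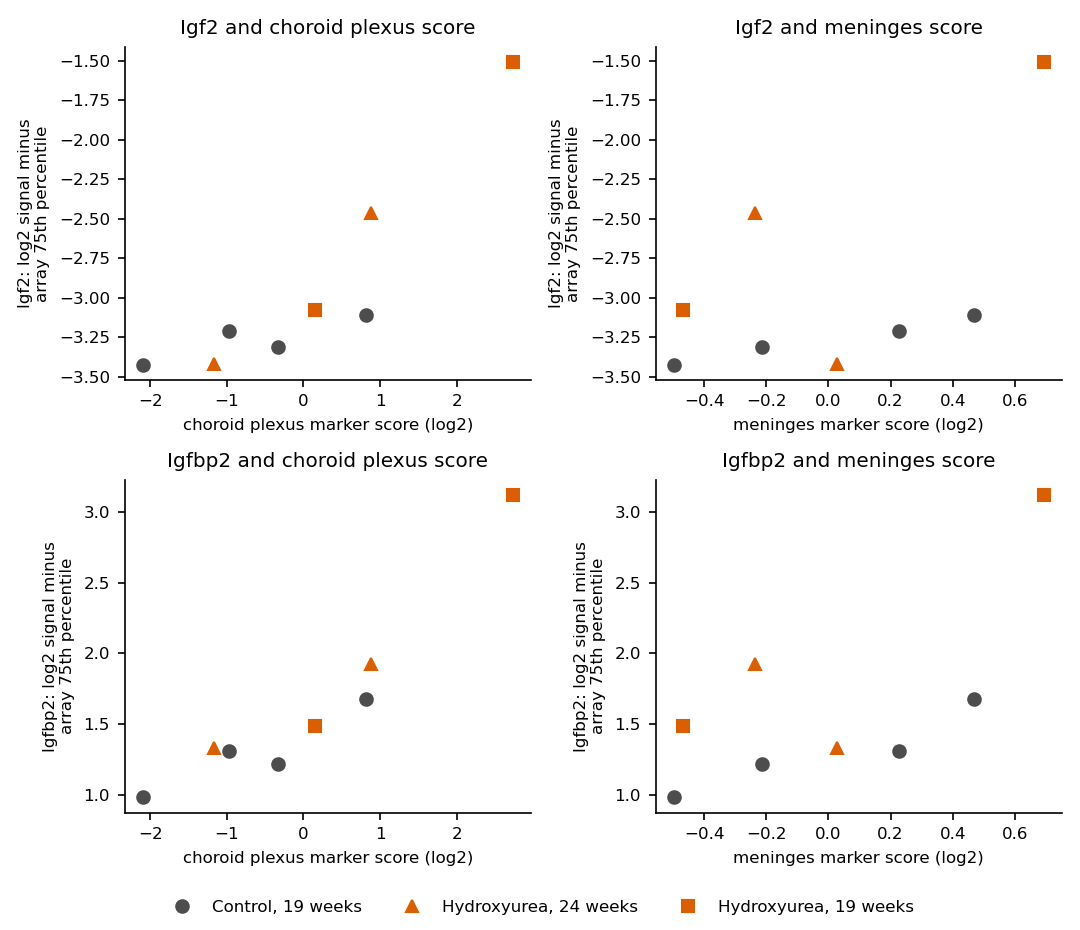
Scaled log2 signal of Igf2 (upper panels) and Igfbp2 (lower panels) in each of the 8 mice against the choroid plexus marker score (left) and the meninges marker score (right). Both genes are higher in mice with a higher choroid plexus score, and Hydroxyurea 4, with a score of 2.73, is highest for both.

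Members were also compared with each other over the mice. Of 45 pairs, 2 passed by Pearson r and 0 by Spearman rho after adjustment. Igf2 and Igfbp2 had r = 0.98 (exact permutation p = 0.00045, adjusted p = 0.010) and rho = 0.90 (exact permutation p = 0.0046, adjusted p = 0.103). Without Hydroxyurea 4 and Hydroxyurea 2, the mice farthest from the Igf2 median, r was 0.80. Igf1 and Irs1 had r = 0.92 (exact permutation p = 0.00032, adjusted p = 0.010) and rho = 0.90 (exact permutation p = 0.0046, adjusted p = 0.103). Without Hydroxyurea 2 and Control 4, r was 0.91, and with group means removed it was 0.86. With the mean over all probes of each gene, r of Igf1 and Irs1 was 0.60 (exact permutation adjusted p = 0.868, in a range from 0.012 to 0.868 over the alternatives). Without Hydroxyurea 2, r was 0.98 for Igf2 and Igfbp2 and 0.86 for Igf1 and Irs1, and neither pair passed (exact permutation adjusted p = 0.080 for each). Without Control 1 and Hydroxyurea 2 together, r was 0.99 and 0.89 over 6 mice, and again neither passed (exact permutation adjusted p = 0.172 for each). With fewer mice an exact p cannot fall as low, so not passing does not by itself mark a weaker relation. Without Hydroxyurea 4, Igf2 and Igfbp2 had r = 0.89 (exact permutation adjusted p = 0.054). Without Hydroxyurea 1, Igf1 and Irs1 had r = 0.91 (exact permutation adjusted p = 0.058). All points of such a relation share their arrays.

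The genes with a pattern most like that of Igf1r over the 8 mice were Chuk, Trim45 and Vstm2a, with a Pearson r of 0.99, 0.98 and 0.98. Chuk, a kinase of the NF-kB pathway, read 2.61, 2.60, 2.77 and 2.64 across Control 1 to 4 and 2.36, 2.40, 2.34 and 2.40 across Hydroxyurea 1 to 4. Like Igf1r it was highest in Control 3, and its groups did not overlap. Since Chuk was picked by its likeness to Igf1r, these shared traits are no separate result. Those most like Igf2 were Morn1, Tns1 and Stra6, the receptor of retinol-binding protein, with r of 0.99, 0.98 and 0.98. Those most like Igfbp2 were C1qtnf5, Llgl2 and Ace, the angiotensin-converting enzyme, with r of 0.99, 0.98 and 0.98. Ace read -0.11 in Hydroxyurea 4 and -2.51 to -1.59 in the other mice. These coefficients are the highest of all genes tested and are given as a description.

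Treated mice of 24 weeks were compared with those of 19 weeks, a contrast that played no part in choosing the members. None of the 10 passed (limma, adjusted over all genes), where 0% of genes passed over the whole array and 2.70% had an unadjusted p under 0.05. Irs1 had the smallest p, with a mean of 1.12 at 24 weeks and 1.32 at 19 weeks and a log2 difference of -0.21 ± 0.09 (SE, n = 2 per age; limma unadjusted p = 0.047, adjusted p = 1.0). It was the 1 member with an unadjusted p under 0.05. The second, dim Irs1 probe ran the other way, with -4.13 at 24 weeks and -4.26 at 19 weeks. With the mean of all probes the Irs1 age difference was -0.04 (limma unadjusted p = 0.81). Leaving out single arrays, the brightest probe gave -0.27 to -0.14. Igf1 had -0.17 ± 0.11 and Igfbp2 had -0.67 ± 0.51. Without Hydroxyurea 4 the Igfbp2 value was 0.14, a fit in which a single 19-week mouse is taken to have the spread of the rest. For Igf1r the older and younger treated mice differed by 0.03 ± 0.08 (95% interval -0.17 to 0.23). Control mice were all 19 weeks old, so age and the age at which treatment began cannot be told apart.

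The wider pathway was described with 6 lists of other genes, 92 in all, of which 85 were bright enough to be tested. None passed between treated and untreated mice (limma, adjusted over all genes tested). At an unadjusted p under 0.05 there were 5 lower and 4 higher, which is 5.88% and 4.71% of the 85, against 6.35% and 3.53% of all genes. These counts hold Igfbp1 among the lower and Gh among the higher genes, each well above background on few arrays of 1 group. Under median centring there were 9 lower and 3 higher, against 1935 and 197 of all genes in place of 1056 and 586. Without Control 1 there were 9 lower, against 1647 of all genes, and with array weights 8 against 2021. With the mean of all probes 3 were lower, against 859 of all genes, and the deposited value table gave 3 against 1096. The median difference was -0.01 over the 85 genes and -0.004 over all genes. The shares of the pathway were thus near those of the whole array.

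Among ligands and the growth hormone axis, 5 of 7 genes had higher and 2 lower values, with a median of 0.11. That count and median include Gh, among the higher genes, whose probe was dim in most Control mice. Ins2, an insulin gene that neighbours Igf2 in the RefSeq annotation, read -1.79, -1.63, -1.61 and -1.57 across Control 1 to 4 and -1.52, -0.84, -1.20 and -0.41 across Hydroxyurea 1 to 4. The groups did not overlap, and Hydroxyurea 4 and Hydroxyurea 2, the treated mice with the highest choroid plexus scores, were again highest. The difference was 0.66 ± 0.22 (SE, n = 4 per group; limma unadjusted p = 0.016, adjusted p = 0.476). Ins1, the other insulin gene, had 1.28 ± 0.66 (limma adjusted p = 0.552). The part of choroid plexus tissue in these values was not tested. Gh, the growth hormone made mainly by the pituitary, read -8.08, -6.98, -7.71 and -5.13 across Control 1 to 4 and -0.90, -3.16, -7.76 and -2.89 across Hydroxyurea 1 to 4. Its probe was measured well above background in 1 Control mouse and 3 treated mice, so it entered the test through the treated group, and neither a difference nor a p is given for it. Hydroxyurea 3 stayed within the Control range.

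Of other binding proteins and the proteases that act on them, 5 of 10 were higher and 5 lower, with a median of -0.01. That count and median include Igfbp1, among the lower genes, whose probe was dim in most treated mice. Igfbp1, the binding protein that insulin represses in liver, read -4.95, -4.97, -4.49 and -4.25 across Control 1 to 4 and -5.17, -5.03, -5.51 and -5.26 across Hydroxyurea 1 to 4. The treated values lay below all Control values, but the probe exceeded background clearly in all 4 Control mice and in 1 treated mouse only. It entered the test through the Control group, so neither a difference nor a p is given for it. Pappa, a protease that cleaves Igfbp4, had -0.28 ± 0.10 (limma adjusted p = 0.484), and -0.01 with normexp. Htra1, a secreted serine protease, had -0.16 ± 0.10.

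Of receptors, adaptors and their inhibitors, 11 of 19 genes were higher and 8 lower, with a median of 0.07. The smallest p belonged to Ptpn11, a phosphatase that relays growth factor signals, with -0.11 ± 0.05 (SE, n = 4 per group; limma adjusted p = 0.552). The docking protein gene Gab1 had 0.28 ± 0.15 and Grb14, an inhibitor of the insulin receptor, -0.20 ± 0.14. In this list 0 genes had an unadjusted p under 0.05.

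Of the phosphoinositide 3-kinase, AKT and mTOR group, 12 of 28 genes were higher and 16 lower, with a median of -0.03. Rps6kb1, the S6 kinase below mTOR, read 4.07, 3.90, 3.97 and 3.97 across Control 1 to 4 and 3.68, 3.72, 3.83 and 3.64 across Hydroxyurea 1 to 4. The groups did not overlap, with a difference of -0.26 ± 0.07 (limma unadjusted p = 0.0044, adjusted p = 0.452), but 1 of its 4 probes had the opposite sign. Pdpk1, the kinase that activates AKT, read 3.84, 3.87, 3.91 and 3.93 across Control 1 to 4 and 3.74, 3.61, 3.71 and 3.64 across Hydroxyurea 1 to 4. It too did not overlap, with a difference of -0.21 ± 0.06 (limma unadjusted p = 0.0054, adjusted p = 0.452), and its 3 probes ran the same way. Akt1 itself had 0.27 ± 0.14, with Control 1 (3.57) below the other Control mice (4.01 to 4.20).

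Of FoxO factors and their targets, 5 of 16 genes were higher and 11 lower, with a median of -0.03. Foxo3 had 0.72 ± 0.20 (SE, n = 4 per group; limma unadjusted p = 0.0072, adjusted p = 0.452) on a dim probe that was well above background on 7 arrays. Cited2, a transcriptional coregulator, had 0.21 ± 0.07 and the repressor gene Bcl6 had -0.31 ± 0.10 (limma adjusted p = 0.477 and 0.476), and neither overlapped between groups. Of insulin-regulated transporters and mRNA-binding proteins, 2 of 5 were higher and 3 lower, with a median of -0.07. Slc2a4, the insulin-responsive glucose transporter, had 0.26 ± 0.16, the glucose transporter gene Slc2a1 -0.23 ± 0.15, and Tbc1d4, an AKT substrate that controls transporter traffic, -0.17 ± 0.11.

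**Figure D4:**
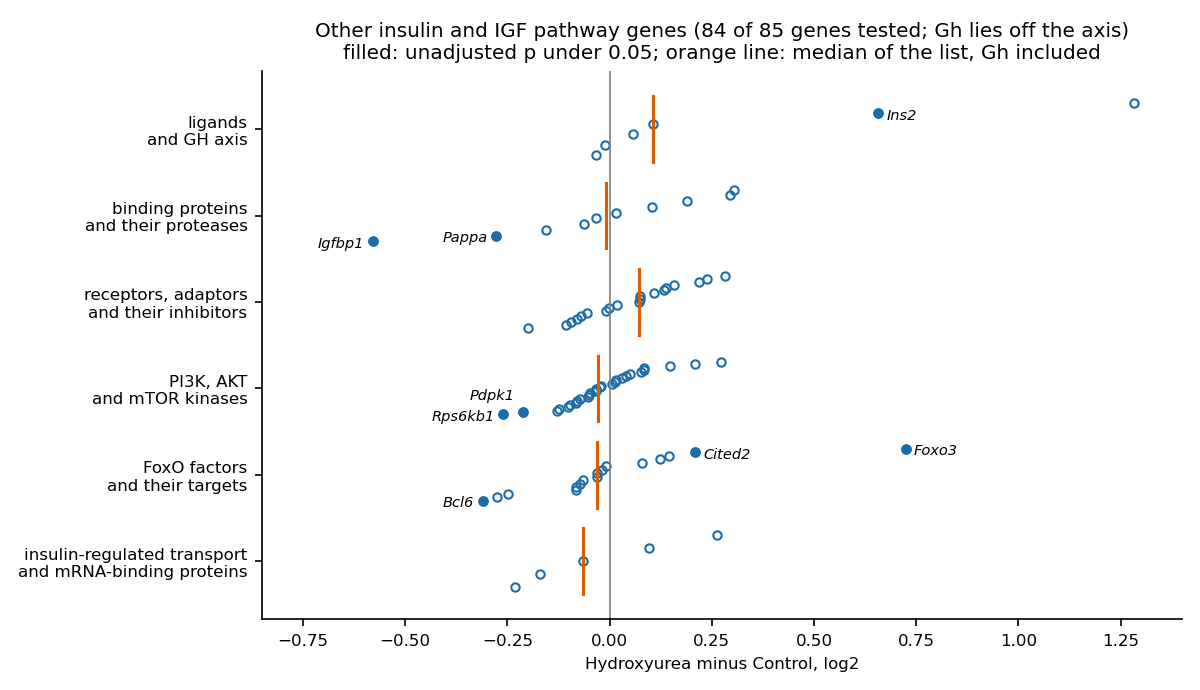
Log2 difference between Hydroxyurea and Control means for the tested genes of the 6 other pathway lists, with a vertical orange line at each list median; Gh lies off the axis and is not drawn. The 8 drawn genes with an unadjusted p under 0.05 are filled and named, and none of them passed after adjustment over all genes. Igfbp1 is among the 8, but its probe was well above background in 1 treated mouse only, so its point is not a result.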

How the data were processed

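Per the file headers, the authors read the scans with Feature Extraction 12.0.3.1, whose processed signal is a background-subtracted intensity per spot, not normalized between arrays. The values in the deposited table are a z score within each array, matched to within 0.005 when computed again from the signals, with medians of -0.21 to -0.17. That table served for counts, directions and relations only. Array annotation is on mm9, and gene names came from the GRCm38.p6 RefSeq table through accessions (28331 of 55681 probes). Log2 of the signal minus the 75th percentile of the array was used, averaging spots and leaving out outlier spots. The brightest probe stood for a gene; a gene was tested if well above background on at least 4 arrays with values on at least 6. Differences came from limma 3.58.1 in R 4.3.3 (lmFit, eBayes), two-sided, with Benjamini-Hochberg adjustment over 16618 genes and a threshold of 0.05; other probes came from a fit of every probe, and age from a fit with 3 group means. The fit was tested on simulated data. There it called 52.5% of 61 genes changed 1.5-fold between treatment groups and 24.6% of 65 changed 1.5-fold between ages. A gene that did not pass may therefore still differ. Relations over mice were tested by exact two-sided permutation of pairings. Signal over background and 4 arrays per group limit precision, and no spot was saturated.

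The members and lists were chosen with earlier results of these data known. The text names all members, up to 3 genes per pathway list by smallest p, the 3 genes most like Igf1r, Igf2 and Igfbp2, the members with the 3 smallest p for age, and marker genes. Alternatives were quantile and median scaling, normexp with an offset of 50 on the median spot signal, the value table, stricter and looser filters, rules for several probes, other variance models, array weights, age, the replicate block and leaving out arrays. The pairs of members and the omission of Control 1 and Hydroxyurea 2 together were added with the data in view. Same-numbered mice did not deviate together (correlations of -0.21 to 0.20), so they were not treated as pairs.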

Additional observations from a re-analysis of the deposited data

Results flagged for a closer look

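Of 94 groups of 4 values examined by Dixon's gap criterion, 2 held a value far from the others, where chance gives about 4.7. The Igf1 value of Control 1 on the brightest probe was -1.51, while the other Control mice lay at -1.32 to -1.29. The hippocampal neuron marker score of Control 3 was -0.30, while the other Control mice lay at 0.10 to 0.18.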

How the results depend on the processing

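No gene of the array and no other pathway gene passed after adjustment in limma in any of 21 alternatives, and no member passed for age in 18. Some alternatives could not move a member difference. The filters, the variance model with trend and robust and the replicate block repeat it, as does the mean of all probes for genes with 1 probe. With these repeats counted, member differences moved by less than the SD between replicates in 193 of 200 recomputed values over 20 alternatives. The other 7 were Igf1r with median centring (-0.41) and normexp (-0.22), Igf1 with the mean of all probes (-0.052), Insr with normexp (0.077), and Irs1 with 19-week mice only (-0.038), age as a covariate (-0.038) and the mean of all probes (0.014). Median centring moved the median difference of all genes tested as well, to -0.09 from -0.004. The SD was wide for Igf2 (0.60) and Igfbp2 (0.61), so even their 0.28 without Hydroxyurea 4 counted as a move below it. Leaving out single arrays, Igf1r ran from -0.34 to -0.29, Igf2 from 0.28 to 0.91, Igfbp2 from 0.28 to 0.88, Insr from -0.08 to 0.01, Irs2 from -0.02 to 0.09 and Igfbp4 from -0.14 to 0.03. Of the marker relations, 0 to 2 passed when single arrays were left out, with 0 without Hydroxyurea 4, 0 without Control 1 and Hydroxyurea 2 together (r of 0.92 and 0.93 for Igf2 and Igfbp2), and 3 with the mean of all probes. Without Hydroxyurea 4, r of Igf2 with the meningeal score was -0.033 and the age difference of Igfbp2 was 0.14; over single arrays left out they ran to 0.67 and -1.49. Genes lower at an unadjusted p under 0.05 numbered 625 without Control 4 and 2021 with array weights, against 1056, and genes higher 197 with median centring and 1508 with no filter, against 586. When all 8 arrays had to be well above background, 2 pathway genes were higher in place of 4, against 567 of all genes in place of 586; that filter drops Gh and Foxo3. With the replicate block, Igf1r was -0.32 ± 0.07, 0 genes passed, and it changed no call; 1 of 4 Control mice correlated best with its own number. Other causes of these shifts were not tested.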
